A study of Homo sapiens with 12 samples.

Results

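The genes described here are 32 that act in mitosis, taken as a named list from the 18651 protein-coding genes with a 3′ UTR interval in the data. Each gene was found by its symbol among the coding rows of the 12 libraries, and overlapping intervals of a gene were counted once. All 32 were present and all 32 passed the filter on low counts. The libraries came from 22Rv1, a human prostate carcinoma cell line, edited to express C1111S SF3B1 (SF3B1 is the splicing factor that holds the branch point adenosine of an intron). Cells of that edited line received WX-02-23 at 20 µM for 3 h, WX-02-43 at 20 µM for 3 h, PladB (pladienolide B, a small molecule that binds the SF3B complex) at 10 nM for 3 h, or DMSO at 0.1% v/v. All groups were then given 100 µM 4-thiouridine for 1 h and had 3 libraries each. Every group, DMSO included, carries the edit, so no cells with unedited SF3B1 stand beside them, and whether the line is a single clone is not given in the sources used here. The 3′ tags lie outside the edited codon and do not check the genotype.

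Cells that enter mitosis need CDK1 bound to cyclin B, the polo and aurora kinases, a kinetochore on each centromere, motor proteins that build the spindle, and a ring that divides the cell. The spindle checkpoint holds the anaphase-promoting complex (APC/C) until chromosomes are attached. Then the APC/C and its partner CDC20 mark the cyclins for destruction. Most of these genes are transcribed late in the cycle, through promoters that carry CCAAT boxes and a cell cycle genes homology region (CHR), the element bound by the DREAM and MuvB complexes and B-MYB.

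In SLAM-seq, 4-thiouridine enters RNA made during the labelling hour and is read as T>C conversions in 3′ end sequencing. T>C reads were used as the measure of newly made RNA, all reads as the measure of total RNA, and the labelled share is the percentage of reads that carry T>C. The library totals behind the deposited CPM were between 24670716 and 42190854 reads, of which 12331520 to 21414824 fell in coding 3′ UTRs. The mitosis genes together had 26440 to 43133 reads and 2601 to 5513 T>C reads per library. The luminal keratin gene KRT8 was detected (between 327.7 and 489.6 reads in 1000000 coding reads over the libraries), whereas the basal genes KRT5 and TP63 had 0 reads. Levels are given as counts per 1000000 (CPM) of the scaled library. Bulk libraries cannot tell fewer cells in mitosis from less mitotic RNA per cell.

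Promoter sequence was matched by symbol for 27 of the 32 genes. A CHR, written as TTTGAA or TTTAAA and searched on both strands, was in the 250 bases before the start in 20 of the 27 (74.1%), against 16.9% of 14109 coding promoters. A CCAAT box, searched on both strands, was in 20 of the 27 (74.1%), against 34.4% of coding promoters. Both motifs stood in 63% of the 27 promoters, against 6.44% of coding promoters. The 90 bases that precede the start are shown for 4 genes whose total RNA fell after PladB (ANLN, BUB1B, KIF23, CCNA2) and for 4 whose total RNA did not pass the test (CCNB1, CCNB2, PLK1, KIF11), so that promoters of both kinds can be read side by side. They are RefSeq sequences of GRCh38.p14, given 5′ to 3′ on the strand of the gene, with CHR and CCAAT matches of either strand in capitals. Each window shown holds a match. KIF2C, whose total RNA fell, and NDC80, NUF2 and CKAP2 had neither motif in the 250 bases and are not shown.
ANLN: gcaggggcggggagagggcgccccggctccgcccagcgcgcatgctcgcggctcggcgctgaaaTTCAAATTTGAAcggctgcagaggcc
BUB1B: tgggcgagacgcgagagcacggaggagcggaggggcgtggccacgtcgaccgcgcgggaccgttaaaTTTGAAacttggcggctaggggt
KIF23: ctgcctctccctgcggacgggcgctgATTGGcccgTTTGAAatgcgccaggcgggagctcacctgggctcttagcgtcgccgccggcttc
CCNA2: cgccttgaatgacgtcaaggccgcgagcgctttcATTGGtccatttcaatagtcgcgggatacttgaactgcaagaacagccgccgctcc
CCNB1: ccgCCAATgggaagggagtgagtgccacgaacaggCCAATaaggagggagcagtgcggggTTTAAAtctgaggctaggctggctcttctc
CCNB2: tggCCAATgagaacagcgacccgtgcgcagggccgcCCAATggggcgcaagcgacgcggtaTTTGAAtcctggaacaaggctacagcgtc
PLK1: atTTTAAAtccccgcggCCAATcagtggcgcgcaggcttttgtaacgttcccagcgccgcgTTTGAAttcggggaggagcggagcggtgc
KIF11: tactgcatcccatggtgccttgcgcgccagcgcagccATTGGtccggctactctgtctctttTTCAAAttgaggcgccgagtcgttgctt

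These windows lie at chr7:36389772-36389861 (+) for ANLN, chr15:40160979-40161068 (+) for BUB1B, chr15:69414259-69414348 (+) for KIF23 and chr4:121823884-121823973 (-) for CCNA2. The others lie at chr5:69167060-69167149 (+) for CCNB1, chr15:59105056-59105145 (+) for CCNB2, chr16:23678799-23678888 (+) for PLK1 and chr10:92593040-92593129 (+) for KIF11. Of the 7 genes whose total RNA fell after PladB, 5 had promoter sequence, and 3 of those 5 held a CHR and 2 a CCAAT box. Of the 24 genes that did not pass that test, 21 had promoter sequence, and 17 held a CHR and 17 a CCAAT box. A match is a description of letters, and these counts were not tested against each other. Only TTTGAA and TTTAAA were counted as a CHR, so a CHR with other letters would be missed.

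In DMSO cells the mitosis genes ranged widely in labelled share. CENPA, the histone H3 variant of centromeres, had the highest mean (24.9% ± 5.32, SD, n = 3), followed by the checkpoint kinase gene TTK (22.7% ± 8.41) and BIRC5 (19.6% ± 5.01). At the low end stood DLGAP5, a spindle microtubule protein gene (2.90% ± 4.57), ECT2, which activates RHOA at the division site (3.22% ± 3.67), and NDC80, the microtubule-binding kinetochore gene (5.35% ± 9.27). Neighbours in this order do not differ beyond their spread, and the T>C reads of low genes were uneven between libraries (NDC80 had 26, 0 and 0 in the 3 DMSO libraries). Of the 32 genes, 19 lay above the share over all coding genes in DMSO (9.45% ± 0.43). The shares also depend on how many T positions a read covers, so this is an order of shares and not of decay rates.

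After PladB, the summed labelled share of the mitosis genes was 10.8%, 9.52% and 9.31% in the 3 libraries, against 11.9%, 10.7% and 11.7% in DMSO libraries. The ranges overlap, and the PladB mean was 0.867 of the DMSO mean. Over all coding genes the share was 5.66%, 5.31% and 5.35% after PladB, against 9.83%, 8.98% and 9.53% in DMSO, with no overlap and a ratio of 0.576. The difference between the mitosis genes and all coding genes is a description with no test. BIRC5 held more T>C reads than any other of the 32 genes, and without it the summed share of the others was 8.91%, 8.04% and 7.94% after PladB, against 11.2%, 10.4% and 10.6% in DMSO, a ratio of 0.772 with no overlap. Counted instead as conversions per covered T, the mitosis genes had 0.527%, 0.442% and 0.459% after PladB, against 0.761%, 0.806% and 0.720% in DMSO, a ratio of 0.625, beside 0.450 for all coding genes. The mitosis genes also took 0.351%, 0.337% and 0.320% of coding T>C reads after PladB, against 0.297%, 0.285% and 0.291% in DMSO. Their part of all coding reads was 0.183%, 0.188% and 0.184% after PladB, against 0.246%, 0.239% and 0.238% in DMSO. Without BIRC5, an omission chosen after seeing the data, the others took 0.263%, 0.261% and 0.248% of coding T>C reads after PladB, against 0.260%, 0.254% and 0.246% in DMSO, with overlap and a ratio of 1.02. Their part of all coding reads without BIRC5 was 0.167%, 0.172% and 0.167% after PladB, against 0.227%, 0.220% and 0.220% in DMSO. Without BIRC5 the groups thus overlapped in the part of labelled reads and did not overlap in the part of all reads.

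**Figure D1:**
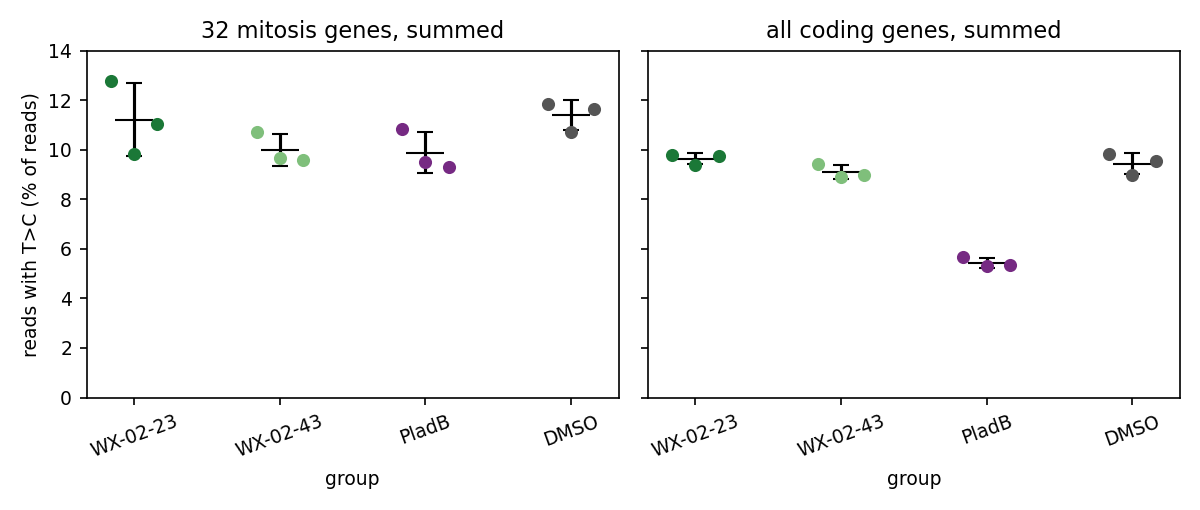
Percentage of reads with T>C conversions in each library (dots) for the 32 mitosis genes summed (left) and all coding genes summed (right), by group, with the mean and SD of 3 libraries. PladB libraries lie at 9.31% to 10.8% against 10.7% to 11.9% in DMSO for the mitosis genes, and at 5.31% to 5.66% against 8.98% to 9.83% for all coding genes.

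Newly made RNA of 3 mitosis genes was higher after PladB than in DMSO and that of none was lower, at an adjusted p under 0.05 (edgeR quasi-likelihood test with Benjamini-Hochberg adjustment over 10722 genes). That is 9.38% of the 32 genes called, beside 10.6% of all genes tested, 9.38% called higher, beside 4.73% of all genes, and none called lower, beside 5.9% of all genes. The PladB libraries were all above the DMSO libraries for 7 of the 32 genes (21.9%, beside 10.4% of all genes) and all below for 3 (9.38%, beside 17.4%). The 32 genes had a median log2 change of 0.028 and all genes one of -0.36. With 3 libraries a group, an exact permutation test of one gene could not give a p below 0.1, so the calls rest on the fit across genes.

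BIRC5 encodes survivin, the subunit that brings the chromosomal passenger complex to centromeres. Its T>C reads reached 1019.9, 837 and 839.8 CPM after PladB, against 353, 297 and 427 CPM in DMSO. Every PladB library lay above every DMSO library, and the T>C reads rose by 1.32 on the log2 scale (SE 0.22, adjusted p = 2.87e-05). Total reads of BIRC5 were 187, 178 and 193 CPM after PladB, against 175, 187 and 166 CPM in DMSO, a log2 change of 0.082 (SE 0.11, adjusted p = 0.653). The labelled share of BIRC5 was 30.6%, 25.9% and 22.9% after PladB, against 19.7%, 14.6% and 24.6% in DMSO, and its change did not pass the test of the share (log2 odds change 0.58, SE 0.34, adjusted p = 0.277). The reads lie in the 3′ UTR at chr17:76219636-76221716 (hg19, + strand). Its principal coding transcript in GENCODE has 3 introns.

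UBE2C, the ubiquitin-conjugating enzyme of the APC/C, had 344, 622 and 313 T>C CPM after PladB, against 227, 204 and 150.2 T>C CPM in DMSO. The groups do not overlap, and the T>C reads rose by 1.14 on the log2 scale (SE 0.30, adjusted p = 0.00862), while its total reads gave a log2 change of -0.0022 (SE 0.12, adjusted p = 0.996). Without DMSO replicate 3 or PladB replicate 2 the UBE2C call was lost, with adjusted p up to 0.127, and it was lost in the fit of only PladB and DMSO libraries (adjusted p = 0.0640). NUF2, a partner of NDC80 in the kinetochore, had 280.5, 301 and 277 T>C CPM after PladB, against 158, 88.9 and 146 T>C CPM in DMSO. It rose by 1.12 on the log2 scale (SE 0.37, adjusted p = 0.0406). The NUF2 call did not hold when any of the 6 libraries was left out (adjusted p between 0.0561 and 0.179) or in the fit of only PladB and DMSO libraries (adjusted p = 0.0694), although the groups do not overlap. Total reads of NUF2 were 106, 128 and 108 CPM after PladB, against 107, 97.6 and 103 CPM in DMSO, with overlap. Its labelled share was 14.8%, 13.0% and 13.5% after PladB, against 14.5%, 8.34% and 13.6% in DMSO, with overlap. In edgeR's test of the share, NUF2 (log2 odds change 0.25, SE 0.45, adjusted p = 0.749) and UBE2C (0.33, SE 0.36, adjusted p = 0.583) did not pass. In hg19 the 3′ UTR intervals are at chr20:44444517-44445596 (+) for UBE2C and chr1:163325260-163325553 (+) for NUF2.

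These calls depend on the scaling. T>C counts were scaled to the T>C reads of each library, whose share of coding reads was lower after PladB. When T>C counts were instead scaled by the factors of all reads, the median log2 change of all genes moved to -1.15 and that of the mitosis genes to -0.81. BIRC5 was then at 0.53 (SE 0.22, adjusted p = 0.0974), UBE2C at 0.34 (SE 0.30, adjusted p = 0.453) and NUF2 at 0.32 (SE 0.38, adjusted p = 0.597), none of them called. On that scale 0 of the 32 genes were called higher, beside 0.793% of all genes, and 3 (9.38%) were called lower, beside 16.3% of all genes: KIF2C (-2.14, adjusted p = 0.0207), ANLN (-1.64, adjusted p = 0.0466) and KIF11 (-2.52, adjusted p = 0.0466). Over all genes the part of calls that were higher was 44.5% with the T>C scaling and 4.63% with the scaling of all reads.

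The leading genes of the other roles did not pass the test in T>C reads. CCNB2, a B-type cyclin, had 214, 77.5 and 136 T>C CPM after PladB, against 104, 128 and 152 T>C CPM in DMSO (log2 change 0.16, SE 0.41). TPX2, which activates aurora A on spindle microtubules, had 153, 127 and 104 T>C CPM after PladB, against 113, 49.7 and 93.5 T>C CPM in DMSO (log2 change 0.58, SE 0.51). PRC1, which bundles microtubules of the central spindle, had 110.0, 106 and 40.1 T>C CPM after PladB, against 74.9, 115 and 122 T>C CPM in DMSO (log2 change -0.28, SE 0.51). For these 3 genes the PladB and DMSO libraries overlap. MKI67, the Ki-67 protein of the chromosome surface, had 133, 77.5 and 84.4 T>C CPM after PladB, against 143, 142 and 48.6 T>C CPM in DMSO (log2 change -0.18, SE 0.54). For MKI67 too the PladB and DMSO libraries overlap. NDC80 and DLGAP5 had no T>C read in any PladB library. In DMSO, NDC80 had 26, 0 and 0 T>C reads and DLGAP5 had 0, 1 and 12, so no fold is given.

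**Figure D2:**
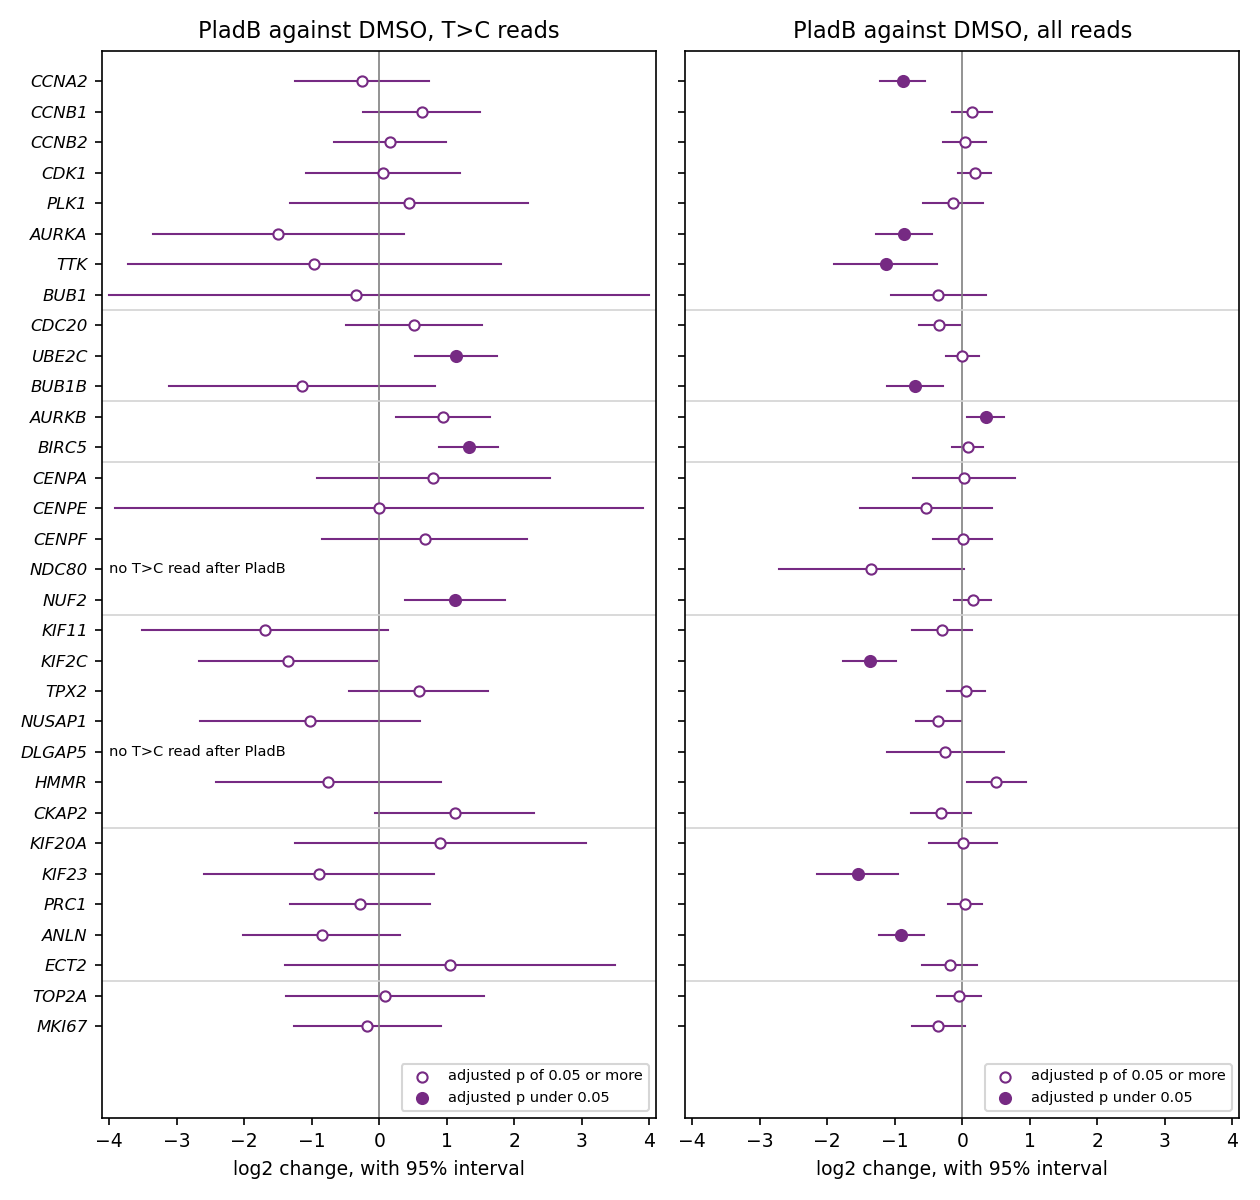
Log2 change of PladB against DMSO with 95% intervals for the 32 mitosis genes, in T>C reads (left) and all reads (right); grey lines part the roles, from cyclins and kinases at the top to chromosome proteins at the bottom. Filled points have an adjusted p under 0.05: BIRC5, UBE2C and NUF2 on the left; AURKB above 0 and CCNA2, AURKA, TTK, BUB1B, KIF2C, KIF23 and ANLN below 0 on the right.

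In total RNA, 7 mitosis genes were lower and 1 was higher after PladB than in DMSO (same test, 13178 genes). The lower ones are 21.9% of the 32 genes, beside 16.3% of all genes called lower. The single higher one is 3.12%, beside 13.9% of all genes. Together 25% were called, beside 30.1% of all genes. The PladB libraries were all below the DMSO libraries for 11 of the 32 genes (34.4%, beside 21.7% of all genes) and all above for 2 (6.25%, beside 19.1%). The median log2 change of the 32 genes was -0.22, and of all genes -0.067.

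Of the 8 cyclins and mitotic kinases, 3 fell, beside 16.3% of all genes called lower. CCNA2, the cyclin of S phase and early mitosis, had 47.1, 42.1 and 47.6 CPM after PladB, against 71.8, 87.8 and 92.5 CPM in DMSO, and the highest PladB library was below the lowest DMSO library (log2 change -0.88, SE 0.17, adjusted p = 5.66e-05). AURKA, the aurora kinase of centrosomes and spindle poles, had 25.2, 27.0 and 30.3 CPM after PladB, against 50.2, 54.8 and 45.1 CPM in DMSO (log2 change -0.86, SE 0.21, adjusted p = 0.00127). TTK, the MPS1 kinase that starts the spindle checkpoint, had 10.6, 4.94 and 7.93 CPM after PladB, against 15.6, 22.7 and 13.2 CPM in DMSO (log2 change -1.13, SE 0.38, adjusted p = 0.0194). The TTK call was lost without DMSO replicate 2 or without PladB replicate 2, with adjusted p up to 0.126. CCNB1, CCNB2, CDK1, PLK1 and BUB1 did not pass, with log2 changes between -0.35 (BUB1) and 0.18 (CDK1). In hg19 the 3′ UTR intervals are at chr4:122737599-122738792 (-) for CCNA2, chr20:54944445-54945213 (-) for AURKA and chr6:80751920-80752244 (+) for TTK. The CCNA2 interval shares 165 bases with the interval of EXOSC9 on the opposite strand.

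Among the genes of the APC/C and the spindle checkpoint, BUB1B fell (it encodes BUBR1, a part of the complex that inhibits the APC/C). It had 26.6, 29.9 and 41.6 CPM after PladB, against 53.9, 49.3 and 56.1 CPM in DMSO (log2 change -0.70, SE 0.20, adjusted p = 0.00657). Without PladB replicate 1 its adjusted p was 0.0540. Its 3′ UTR interval is at chr15:40512961-40513337 (hg19, +). CDC20, which the checkpoint holds back, was at 87.2, 86.4 and 64.0 CPM after PladB, against 100.4, 91.2 and 109 CPM in DMSO. These groups do not overlap, yet CDC20 did not pass the test (log2 change -0.34, SE 0.15, adjusted p = 0.0825). The 8 genes called in total RNA, by edgeR and by DESeq2 alike, include none of the 5 kinetochore and centromere genes, of which NDC80 had the largest log2 change (-1.35, adjusted p = 0.137).

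The spindle motor gene KIF2C, whose product takes microtubules apart at their ends, fell with the smallest adjusted p of the 32. It had 28.7, 25.1 and 32.3 CPM after PladB, against 79.9, 65.5 and 76.8 CPM in DMSO (log2 change -1.37, SE 0.19, adjusted p = 5.65e-07). In the central spindle, KIF23, the kinesin of centralspindlin, had 10.97, 11.9 and 8.30 CPM after PladB, against 34.9, 26.6 and 29.5 CPM in DMSO (log2 change -1.55, SE 0.30, adjusted p = 7.39e-05). ANLN, anillin of the contractile ring, had 53.7, 46.4 and 62.7 CPM after PladB, against 105, 114 and 84.8 CPM in DMSO (log2 change -0.90, SE 0.16, adjusted p = 3.23e-05). For all 3 genes the groups do not overlap. The intervals are at chr1:45232852-45233439 (+) for KIF2C, chr15:69740147-69740766 (+) for KIF23 and chr7:36492210-36493400 (+) for ANLN, in hg19. Together with CCNA2 and AURKA they were called in each of the 6 fits that leave out a library. KIF11, the motor that pushes spindle poles apart, and PRC1 did not pass (log2 changes -0.30 and 0.039). In T>C reads, with the T>C scaling, the 7 genes lower in total RNA all had negative log2 changes, and none was called. These were -1.49 for AURKA, -1.35 for KIF2C, -1.14 for BUB1B, -0.96 for TTK, -0.89 for KIF23, -0.85 for ANLN and -0.25 for CCNA2. Their SE lay between 0.49 (CCNA2) and 1.37 (TTK).

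The remaining genes did not pass the test in total RNA after PladB, and their directions were mixed. HMMR stood highest, with 46.2, 53.0 and 41.8 CPM after PladB, against 42.9, 26.0 and 30.6 CPM in DMSO, with overlap (log2 change 0.50, SE 0.22, adjusted p = 0.0768). Among kinetochore genes, CENPE, a motor that moves chromosomes to the spindle equator, was at -0.54, CENPF at 0.0035 and CENPA at 0.024. NUSAP1, a microtubule bundling protein gene, was at -0.36 (adjusted p = 0.0981), and KIF20A, a kinesin of the central spindle, at 0.014. ECT2 was at -0.19 and DLGAP5 at -0.25. TOP2A and MKI67, which act on the chromosomes themselves, were at -0.048 and -0.35.

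**Figure D3:**
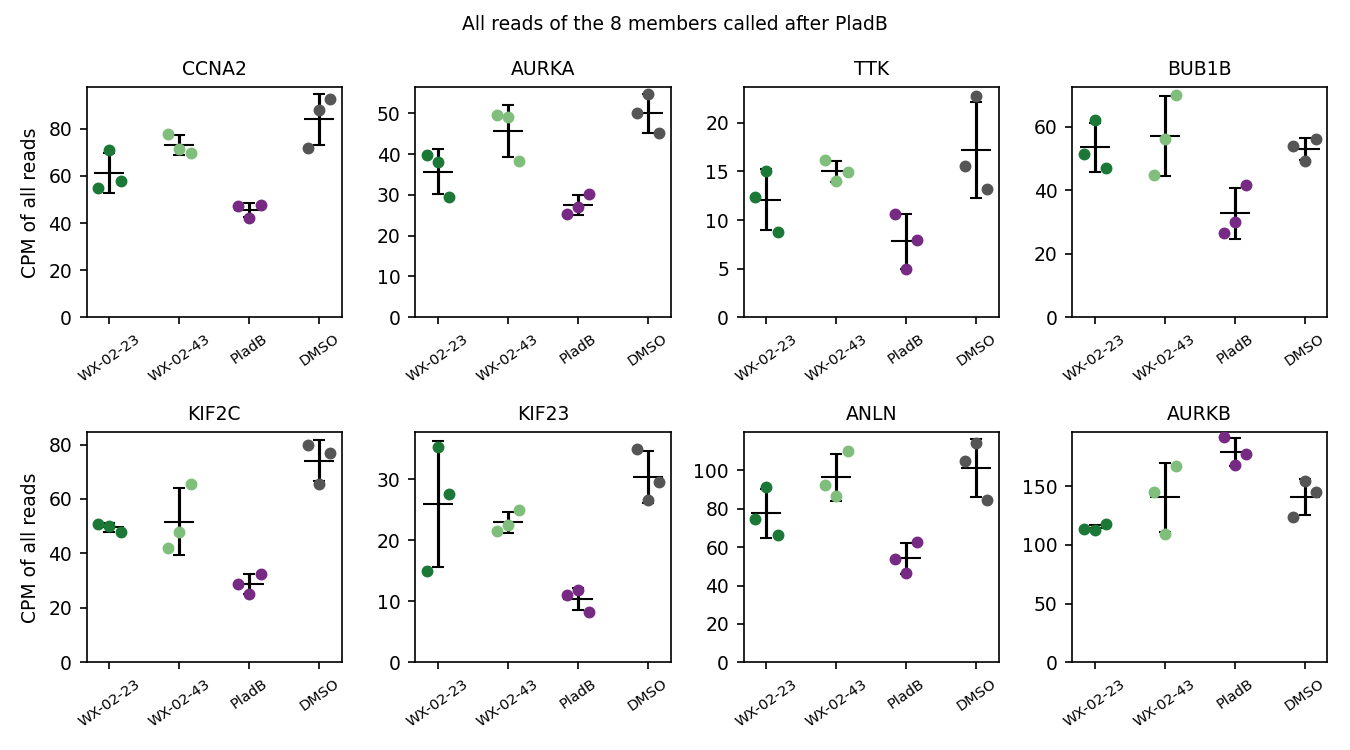
CPM of all reads in each library (dots), with the mean and SD of 3 libraries, for the 8 mitosis genes with an adjusted p under 0.05 after PladB; each panel has its own axis from 0. In the first 7 panels every PladB library lies below every DMSO library, as KIF2C shows with 25.1 to 32.3 CPM after PladB against 65.5 to 79.9 CPM in DMSO.

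Total RNA of AURKB, the kinase of the chromosomal passenger complex, was the exception in direction. Its coding interval had 192, 168 and 178 CPM after PladB, against 124, 154 and 145 CPM in DMSO (log2 change 0.35, SE 0.13, adjusted p = 0.0448). The groups do not overlap, but the AURKB call was lost in 4 of the 6 fits that leave out a library (adjusted p up to 0.224) and when all intervals were tested apart (adjusted p = 0.0559). T>C reads of AURKB were 376, 331 and 369 CPM after PladB, against 146, 249.8 and 164 CPM in DMSO, which did not pass edgeR's test (log2 change 0.94, SE 0.34, adjusted p = 0.0725), although DESeq2 called AURKB along with BIRC5, UBE2C and NUF2. That change too depended on the scaling. With T>C counts scaled by the factors of all reads, edgeR gave AURKB a log2 change of 0.16 (SE 0.36, adjusted p = 0.803). In edgeR's test of the labelled share, AURKB did not pass (log2 odds change -0.19, SE 0.39, adjusted p = 0.777).

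CKAP2, a spindle microtubule protein gene, has 2 coding 3′ UTR intervals that lie 9298 bases apart, and they moved in opposite directions after PladB. The interval inside the gene (chr13:53039610-53039978, hg19, + strand) had 281, 452 and 131 reads after PladB, against 43, 8 and 69 reads in DMSO. The interval at the end of the gene (chr13:53049277-53050766) had 455, 236 and 357 reads after PladB, against 919, 560 and 1070 reads in DMSO. All PladB libraries were above all DMSO libraries for the first and below them for the second. Tested by interval, a choice made after seeing the data, the internal one rose by 3.03 on the log2 scale (SE 0.84, adjusted p = 0.00482) and the terminal one fell by 1.15 (SE 0.23, adjusted p = 0.000194), where 28.7% of the 14027 features tested that way were called. The internal interval took 38.2%, 65.7% and 26.8% of CKAP2 reads after PladB, against 4.47%, 1.41% and 6.06% in DMSO (two-sided exact permutation test, p = 0.1, the smallest that 3 against 3 allows). Without PladB replicate 2 the internal interval had an adjusted p of 0.0634 at a log2 change of 2.41. Summed over the gene, CKAP2 did not pass (log2 change -0.32, SE 0.22, adjusted p = 0.302). Of the T>C reads, the internal interval held 85, 147 and 75 after PladB, against 2, 0 and 66 in DMSO, which did not pass the test (adjusted p = 0.148). After WX-02-23 the internal interval took 5.30%, 0% and 11.02% of CKAP2 reads and after WX-02-43 3.75%, 8.93% and 1.87%. Both ranges overlap that of DMSO and reach above it (two-sided exact permutation test, p = 0.8 for each).

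**Figure D4:**
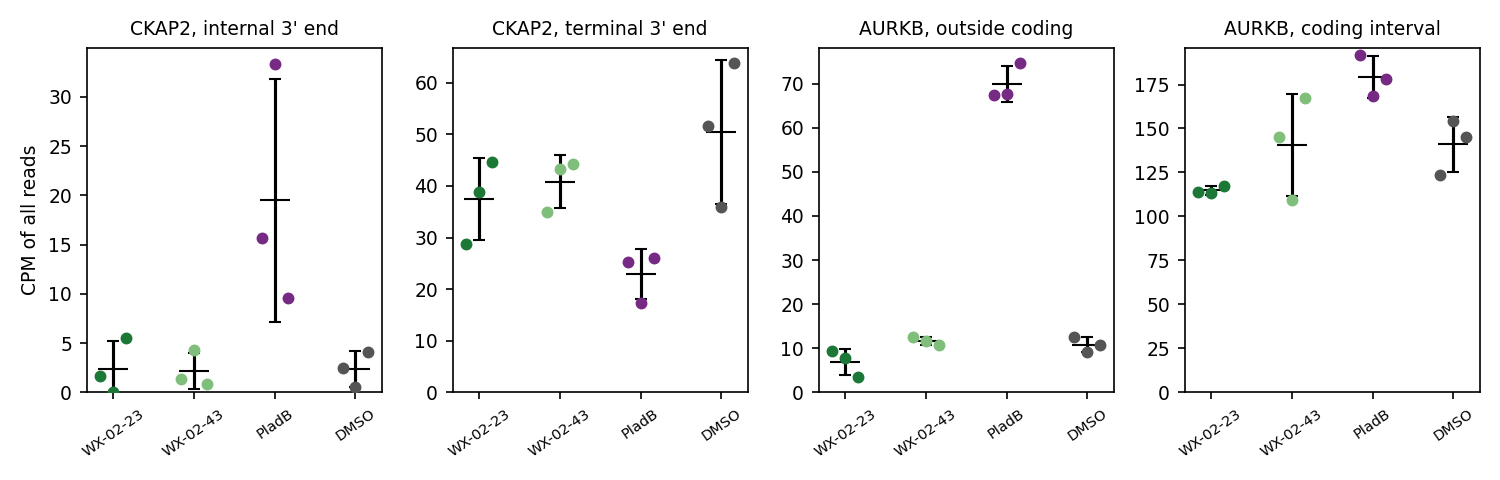
CPM of all reads in each library (dots), with the mean and SD of 3 libraries, for the internal and terminal 3′ UTR intervals of CKAP2 and for AURKB reads outside and inside its coding interval; each panel has its own axis from 0. After PladB the internal CKAP2 interval lies at 9.54 to 33.3 CPM against 0.513 to 4.11 CPM in DMSO, and the AURKB reads outside the coding interval at 67.4 to 74.6 CPM against 9.03 to 12.5 CPM.

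The labelled share of single genes after PladB gave no call among the 32 (edgeR, 0 at an adjusted p under 0.05 and 4 at an unadjusted p under 0.05, DESeq2 not run on this readout). Of all genes, 11% were called, and 28.4% had an unadjusted p under 0.05, beside 12.5% of the 32. The median log2 odds change was -0.68 for the mitosis genes and -1.30 for all genes. HMMR, a spindle protein gene, came closest, with 2.90%, 3.48% and 6.27% labelled after PladB, against 10.5%, 25.4% and 19.5% in DMSO (log2 odds change -2.35, SE 0.76, adjusted p = 0.0625). The HMMR interval overlaps that of HMMR-AS1, which had no reads in any library. When each kind of read was scaled on its own, BIRC5 alone was called among the 32 (1.46, SE 0.28, adjusted p = 0.00367) and the median of the mitosis genes was 0.19.

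Counted in the principal coding transcript of each gene in GENCODE, the mitosis genes had a median of 15 introns, against 8 for genes tested in all reads, while the median transcript spanned 29581 bases for them and 27654 for all. Across the 32 genes, the log2 change after PladB was lower in genes with more introns (Spearman rho -0.41 in T>C reads and -0.42 in all reads), beside -0.20 and -0.18 across all genes tested. These are descriptions across genes that share the same 6 libraries. The T>C value for the 32 genes includes NDC80 and DLGAP5, which had no T>C read in any PladB library. The 10 mitosis genes with 20 or more introns had a median log2 change of -0.62 in all reads, beside -0.35 for all 1649 tested genes with that many, and they include KIF2C, KIF23, TTK, BUB1B and ANLN. In T>C reads the same 10 genes had a median of -0.87, beside -0.97 for all genes with that many introns. The 10 mitosis genes with 10 to 19 introns had medians of 0.0088 in all reads, beside -0.20, and -0.23 in T>C reads, beside -0.63. The 10 with 5 to 9 introns had medians of -0.070 in all reads, beside -0.00063, and 0.48 in T>C reads, beside -0.28. The 2 with 1 to 4 introns had 0.053 in all reads, beside 0.12, and 1.06 in T>C reads, beside -0.097. The called genes CCNA2 and AURKA have 7 and 8 introns.

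After the compounds WX-02-23 and WX-02-43, no mitosis gene passed the test in T>C reads, in all reads or in labelled share. In T>C reads 0.224% of all genes were called after WX-02-23 and 0.0933% after WX-02-43, and in all reads 0.698% and 0.167% of all genes were called. In labelled share 0.00933% and 0% of all genes were called. DESeq2, run on T>C reads and all reads, also called 0 of the 32 genes. At an unadjusted p under 0.05, edgeR gave 2 of the 32 in T>C reads after WX-02-23 (beside 4.52% of all genes) and 0 after WX-02-43 (beside 3.81%). In all reads it gave 11 after WX-02-23 (34.4%, beside 8.7% of all genes) and 3 after WX-02-43 (9.38%, beside 5.85%; DESeq2 gave 2, 0, 10 and 2). In labelled share edgeR gave 0 of the 32 after WX-02-23 (beside 3.36% of all genes) and 1 after WX-02-43 (3.12%, beside 3.11%) at that unadjusted threshold.

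Below that threshold, the values leaned low. The median log2 change of the 32 genes in all reads was -0.21 after WX-02-23 and -0.084 after WX-02-43, with all genes at 0.0017 and 0.0020. In T>C reads it was -0.48 after WX-02-23 and -0.41 after WX-02-43, with all genes at 0.0017 and 0.0042. Lists described below leaned low too, with no test against the 32 genes. In T>C reads, DNA replication and G1/S genes had medians of -0.42 after WX-02-23 and -0.28 after WX-02-43. Regulators of mitotic transcription had -0.30 and -0.50, and other mitotic genes -0.21 and -0.16. In all reads these lists, in that order, had -0.18, -0.17 and -0.11 after WX-02-23. After WX-02-43 they had -0.013, -0.11 and -0.0093. T>C changes were below 0 for 22 of the 32 genes after WX-02-23 (68.8%, beside 49.9% of all genes) and 23 after WX-02-43 (71.9%, beside 49.7%). In all reads, 26 of the 32 genes had a log2 change below 0 after WX-02-23 (81.2%, beside 49.6% of all genes) and 24 of 32 after WX-02-43 (75%, beside 49.7%). Both comparisons use the same DMSO libraries as the PladB comparison. All 3 WX-02-23 libraries lay below all 3 DMSO libraries for 7 of the 32 genes (21.9%, beside 6.95% of all genes), and the WX-02-43 libraries did so for 3 (9.38%, beside 5.69%). Together the genes took 0.201%, 0.214% and 0.208% of coding reads after WX-02-23, 0.223%, 0.220% and 0.235% after WX-02-43, and 0.246%, 0.239% and 0.238% in DMSO. Conversions per covered T over all coding genes were above DMSO after both compounds without overlap, at ratios of 1.15 for WX-02-23 and 1.29 for WX-02-43. For the mitosis genes these ratios were 1.01 and 1.09. How this bears on the T>C changes was not tested.

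KIF2C had the smallest adjusted p among the 32 in both comparisons of all reads, with 50.9, 50.2 and 47.7 CPM after WX-02-23, 41.8, 47.7 and 65.6 CPM after WX-02-43, and 79.9, 65.5 and 76.8 CPM in DMSO. Each WX-02-23 library was lower than each DMSO library, and the WX-02-43 libraries overlapped DMSO by a narrow margin. The log2 change was -0.58 after WX-02-23 (95% interval -0.96 to -0.19, adjusted p = 0.208) and -0.52 after WX-02-43 (95% interval -0.90 to -0.13, adjusted p = 0.625). CCNA2 had 54.9, 71.0 and 57.7 CPM after WX-02-23, 78.0, 71.6 and 69.6 CPM after WX-02-43, and 71.8, 87.8 and 92.5 CPM in DMSO (log2 change after WX-02-23 -0.46, adjusted p = 0.284). NUF2 had 77.3, 76.4 and 77.3 CPM after WX-02-23, 96.0, 89.6 and 102 CPM after WX-02-43, and 107, 97.6 and 103 CPM in DMSO (log2 change after WX-02-23 -0.41, adjusted p = 0.218). For CCNA2 and NUF2 the WX-02-23 libraries lay below all DMSO libraries. BIRC5 T>C reads, which were high after PladB, were 438, 423 and 296 CPM after WX-02-23, 428, 398 and 419 CPM after WX-02-43, and 353, 297 and 427 CPM in DMSO, with overlapping groups.

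**Figure D5:**
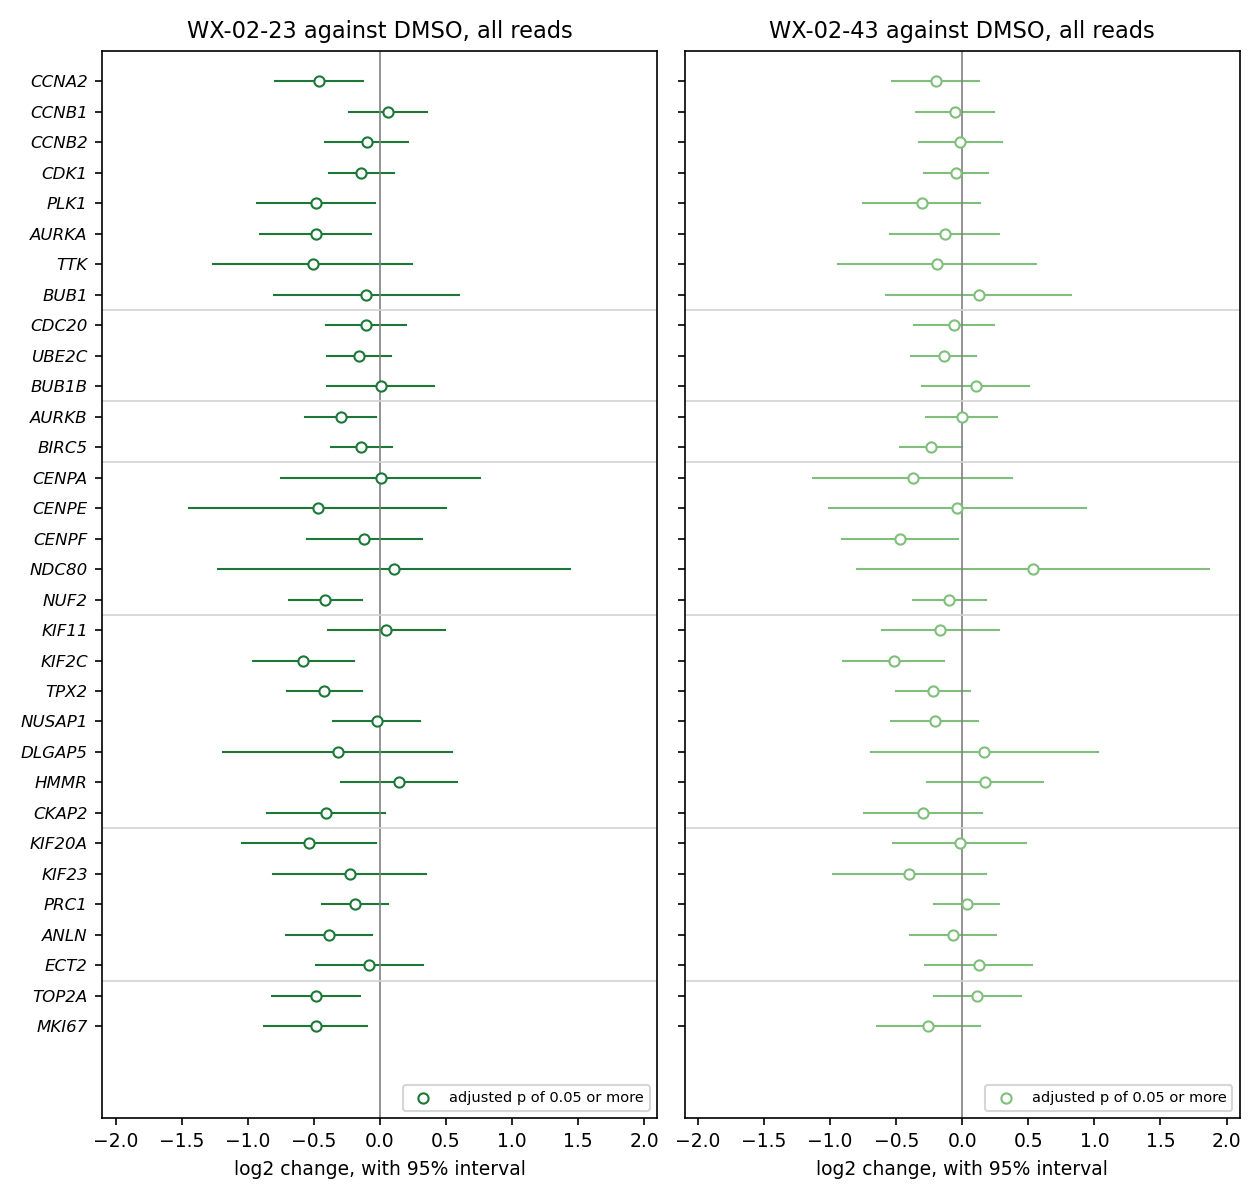
Log2 change in all reads with 95% intervals for the 32 mitosis genes after WX-02-23 (left) and WX-02-43 (right) against DMSO, in the order of roles used above; open points have an adjusted p of 0.05 or more. No point is filled, and 26 points on the left and 24 on the right lie below 0, KIF2C at -0.58 and -0.52 among them.

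WX-02-23 and WX-02-43 had the same dose and time and were compared with each other in 1 pair, over all genes. None of the 32 genes differed in T>C reads, all reads or labelled share at an adjusted p under 0.05, beside 0.0466%, 0.152% and 0% of all genes. At an unadjusted p under 0.05 edgeR gave 1 of the 32 in T>C reads (3.12%, beside 2.85% of all genes), 4 in all reads (12.5%, beside 5.51%) and 1 in labelled share (3.12%, beside 2.78%; DESeq2, run on the first 2 readouts, gave 0 and 4, and 0 adjusted calls). TOP2A, which untangles sister DNA, had 65.7, 59.6 and 70.4 CPM after WX-02-23, against 86.7, 117 and 92.3 CPM after WX-02-43, without overlap (log2 change -0.60, 95% interval -0.93 to -0.26, adjusted p = 0.256). For BIRC5 the interval of the difference in all reads ran from -0.14 to 0.33 and for CCNB2 from -0.40 to 0.23, so differences within those bounds could not be told from 0. PladB was given at another dose and its values stand beside the others with no comparison between compounds.

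Other genes of the mitotic machinery were read from 7 lists of 104 genes in all (entry switch, APC/C, checkpoint partners, kinetochore partners, spindle partners, condensin and cohesin, cytokinesis partners). In all reads after PladB 15 of them rose (14.4%, beside 13.9% of all genes) and 28 fell (26.9%, beside 16.3%), with a median log2 change of -0.36, beside -0.067 for all genes. In T>C reads, with the T>C scaling, 6 of 99 tested rose (6.06%, beside 4.73% of all genes) and 4 fell (4.04%, beside 5.9%). Their median was -0.42, beside -0.36. After WX-02-23, in all reads, 0 of the 104 rose and 2 fell (1.92%, beside 0.273% of all genes called lower). They were SMC4 (condensin, log2 change -0.79, adjusted p = 0.0255) and RHOA (the GTPase of the contractile ring, log2 change -0.33, adjusted p = 0.0409). After WX-02-43, 0 of the 104 were called in all reads, beside 0.167% of all genes.

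Of 19 genes on the APC/C list (subunits, inhibitors and securin), 7 rose and 4 fell in all reads after PladB. Of all genes tested in that comparison, 13.9% were called higher and 16.3% lower. Among them FBXO5, the APC/C inhibitor EMI1, averaged 75.3 CPM ± 1.07 after PladB and 31.7 CPM ± 5.93 in DMSO (SD, n = 3 each), a log2 change of 1.25 (adjusted p = 9.70e-06). With the T>C scaling, its T>C reads rose by 0.98 (adjusted p = 0.0277), a value that cannot be compared in size with the 1.25 of all reads. In all reads PTTG1, securin, rose by 0.51 (adjusted p = 0.000287). The APC/C subunit CDC23 averaged 20.3 CPM ± 6.26 after PladB and 69.9 CPM ± 4.41 in DMSO and fell by 1.78 (adjusted p = 6.95e-09). The CDC23 interval overlaps that of KIF20A on the opposite strand by 68 bases. Of 16 spindle and kinesin partners 5 fell and 11 did not pass, with KIF18B at -1.61 and ASPM at -1.38. The difference between these lists was not tested.

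Of the 12 entry switch genes 2 rose and 6 fell, among them MASTL, the Greatwall kinase (-2.73, adjusted p = 6.48e-06), and its substrate ENSA, which rose (0.75, adjusted p = 1.51e-07). CCNF, cyclin F, fell in all reads (-2.15, adjusted p = 2.93e-07) and in T>C reads (-3.14, adjusted p = 0.00503). The partners of the chromosomal passenger complex and checkpoint gave 1 higher and 2 lower of 12. CDCA8 (borealin), in the passenger complex with BIRC5 and AURKB, fell to 13.6 CPM ± 5.04 after PladB, against 49.8 CPM ± 7.11 in DMSO (-1.87, adjusted p = 1.57e-07). Condensin and cohesin gave 2 higher and 5 lower of 17, with CDCA5 (sororin) at -1.69. Cytokinesis partners gave 1 higher (RHOA, 0.62) and 2 lower of 8, among the lower pair RACGAP1, the partner of KIF23 (-0.55, adjusted p = 0.0250). Kinetochore partners gave 2 higher and 4 lower of 20, with DSN1 at -1.04. The counts of each of these lists in all reads stand beside 13.9% of all genes called higher and 16.3% called lower.

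The regulators of mitotic transcription (DREAM and MuvB subunits, E2F proteins, FOXM1, B-MYB, NF-Y and others) gave 2 higher and 12 lower of 24 in all reads after PladB, with a median log2 change of -0.69, where 13.9% of all genes were higher, 16.3% lower and the median was -0.067. E2F4, the E2F of the DREAM complex, averaged 17.5 CPM ± 7.22 after PladB and 61.3 CPM ± 3.04 in DMSO (log2 change -1.80, adjusted p = 5.07e-07), and LIN52, a MuvB subunit, changed by -1.27 (adjusted p = 0.000162). Genes of DNA replication and the G1/S transition gave 3 higher and 12 lower of 38, with a median of -0.18, beside that same background of all genes, and the origin factors MCM10 (-2.23) and CDC6 (-1.83) fell.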

How the data were processed

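RNA of 22Rv1 cells was alkylated and sequenced from its 3′ ends (QuantSeq), per the labels' protocols. Per the file headers, the authors ran slamdunk 0.4.3 and deposited, for each 3′ UTR interval, raw counts of reads, T>C reads, covered T positions and conversions, with 1 file per library. The files also hold CPM and a conversion fraction made by the authors, of which the CPM served only to recover the library totals. Per the submitters' processing notes, hg19 was the build. The annotation held curated RefSeq intervals, per the file headers. Aligner settings and strand handling are not given in the sources used here.

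Of 29255 intervals, 23086 were coding, and 20427 non-overlapping ones, longest first, were summed to 18651 genes. CPM in the text are reads, or T>C reads, per 1000000 of the TMM-scaled library of the same kind over the genes tested. Reads carried no molecular identifiers in the deposited counts. All 12 libraries entered edgeR 4.0.16 (R 4.3.3, limma 3.58.1) with TMM factors, filterByExpr, quasi-likelihood tests and Benjamini-Hochberg adjustment over all genes tested. The labelled share was tested in edgeR with library terms and kind of read by group. DESeq2 1.42.0 and other scalings, filters, interval sums and left-out libraries were alternatives. The scripts were tested on simulated data. Testing by interval and leaving out BIRC5 were added after seeing the data.

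Members and gene lists were chosen with earlier results of these data known. Named in full were genes called in any comparison and the gene with the most T>C CPM in each role. Of the other lists, up to 4 called genes by smallest adjusted p were named. CDC20, CKAP2, HMMR, KIF2C in T>C reads, TOP2A and the remaining genes given values were named after their values were seen. The labels do not say that replicates came from separate cultures, so p-values measure the spread between these libraries, which may be technical.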

Additional observations from a re-analysis of the deposited data

Results flagged for a closer look

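Reads in the AURKB gene outside its coding 3′ UTR interval belong to none of the comparisons by gene and were high in PladB libraries. The coding interval (chr17:8108049-8108188, hg19, 140 bases) lies inside a noncoding interval of 5896 bases, which no interval of another gene overlaps. The other 5756 bases held 1211, 918 and 1025 reads after PladB, against 222, 141 and 180 reads in DMSO. The mean was 69.9 CPM ± 4.08 after PladB, 6.89 ± 3.01 after WX-02-23, 11.6 ± 0.840 after WX-02-43 and 10.8 ± 1.73 in DMSO (SD, n = 3 each). Tested as a feature of its own, the log2 change after PladB was 2.69 (SE 0.30, edgeR adjusted p = 4.86e-09), and 2.58 to 2.81 with any 1 library of the 2 groups left out. Of these reads, 113, 91 and 124 carried T>C after PladB, against 127, 41 and 34 in DMSO, with overlapping counts. Scaled to the T>C reads of each library, they did not pass edgeR's test (log2 change 1.71, adjusted p = 0.188). With and without T>C, the reads outside the coding interval were 26.0%, 28.7% and 29.5% of all AURKB reads after PladB. In DMSO they were 9.17%, 5.53% and 6.89% (two-sided exact permutation test, p = 0.1, the smallest possible).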

How the results depend on the processing

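Over the alternatives, 356 of the summary values stayed close to those reported and 79 moved, and of the single-gene values 258 kept direction and call, 24 lost the call, 2 gained it and 17 changed sign; where no cause is named, the cause was not tested. Genes called in T>C reads after WX-02-23 were 24, with 69 under DESeq2 and 13 under the plain sum of intervals; after WX-02-43 10, with 47 under DESeq2 and 16 without the low-count filter; after PladB 1140, with 1960 under DESeq2, 495 with only the 2 groups and 1835 scaled to all reads; between WX-02-23 and WX-02-43 5, with 28 under DESeq2, 8 without the filter and 2 under the plain sum. In all reads they were 92 after WX-02-23, with 146 under DESeq2, 140 without the filter, 53 under the plain sum and 56 with only the 2 groups. After WX-02-43 they were 22, with 40 under DESeq2 and 36 without the filter, and between the 2 compounds 20, with 38, 33 and 12 under DESeq2, no filter and the plain sum. With each kind of read scaled by TMM, labelled share gave 2, 2 and 311 genes after WX-02-23, WX-02-43 and PladB, 1 mitosis gene called after PladB and a median of 0.19. With only the 2 groups, 1 mitosis gene (BIRC5) was called in T>C reads after PladB, and UBE2C and NUF2 were not.

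The mitosis genes' median after PladB was -0.81 in T>C reads scaled to all reads, and in all reads -0.20 with RLE factors, -0.20 with DESeq2 and -0.24 with the replicate block. With the replicate block, the median in T>C reads after WX-02-23 was -0.54. To look for pairing, the mean of its group was taken from each gene's log CPM, and what remained was correlated between libraries of different groups. In all reads these correlations ran from -0.032 to 0.0399 for same-numbered libraries and from -0.0366 to 0.049 for the others. The numbers were not taken as pairs. The ratio of summed share to DMSO was 0.876 for WX-02-43 and 0.867 for PladB as share of reads. It was 1.09 for WX-02-43 and 0.625 for PladB as conversions of covered T, and 0.772 for PladB as share of reads without BIRC5. Over all coding genes the ratio as conversions of covered T was 1.29 for WX-02-43 and 0.450 for PladB. The ratio of their part of coding T>C reads was 1.16 for PladB, and 1.02 without BIRC5. CCNB2 and TPX2 T>C changes were -0.63 and -0.22 when scaled to all reads. UBE2C in all reads was 0.017 with RLE factors, 0.017 with DESeq2 and 0.0048 with only the 2 groups.

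With 1 library left out, genes called ranged from 12 to 23 (T>C, WX-02-23), 8 to 14 (T>C, WX-02-43), 838 to 1152 (T>C, PladB) and 1 to 3 (T>C, WX-02-23 against WX-02-43). In all reads they ranged from 41 to 86 (WX-02-23), 13 to 29 (WX-02-43), 3268 to 3654 (PladB) and 7 to 11 (WX-02-23 against WX-02-43). In labelled share they ranged from 0 to 1 (WX-02-23) and 624 to 1187 (PladB). Mitosis genes called after PladB ranged from 1 to 3 in T>C reads, 6 to 8 in all reads and 0 to 1 in labelled share. Their median after PladB ranged from -0.012 to 0.22 in T>C reads, -0.25 to -0.20 in all reads and -0.70 to -0.46 in labelled share. After WX-02-23 it ranged from -0.49 to -0.33, -0.27 to -0.20 and -0.35 to -0.033 in the same 3 readouts. After WX-02-43 it ranged from -0.52 to -0.27, -0.15 to -0.083 and -0.48 to -0.31. Between the 2 compounds it ranged from -0.16 to 0.032, -0.20 to -0.11 and -0.0056 to 0.18. The summed share ratio ranged from 0.915 to 1.04 for WX-02-23, 0.845 to 0.895 for WX-02-43 and 0.825 to 0.892 for PladB. Changes of sign after PladB were seen for CCNB2 (-0.26 to 0.45 in T>C reads, -0.063 to 0.23 in all reads), PRC1 (-0.51 to 0.054 and -0.053 to 0.098), MKI67 in T>C reads (-0.54 to 0.048), and TPX2 (-0.0022 to 0.15) and UBE2C (-0.074 to 0.13) in all reads. T>C reads of single genes were few, at 2601 to 5513 per library over all 32.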
